A study of Mus musculus with 6 samples.

Results

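The iron handling and ferroptosis genes described here are 10 mouse genes: the ferritin subunit genes Fth1 and Ftl1, the iron import and export genes Tfrc, Trf, Slc11a2 and Slc40a1, the ferritin turnover gene Ncoa4, and the membrane lipid genes Acsl4, Lpcat3 and Aifm2. They were chosen by name for their known roles, and all 10 were found among the 27179 Entrez identifiers of the deposited table. RNA came from lenses of mouse pups of the strain label B6/FVB, taken on postnatal day 1. 3 libraries carried the genotype label Gclc KO (KO 1 to 3) and 3 the label Gclc CON (CON 1 to 3). Gclc encodes the catalytic subunit of the enzyme that starts glutathione synthesis. The labels name neither a Cre driver nor the altered part of Gclc, and they do not say what alleles the CON pups carried, whether lenses were pooled, or that each library came from its own animal. The p-values below therefore measure the spread between these libraries only, which may in part be technical.

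Iron enters most cells as transferrin bound to the transferrin receptor, leaves the endosome through a metal transporter, is stored inside ferritin shells and leaves the cell through ferroportin. Ferroptosis is a form of cell death in which iron drives the peroxidation of polyunsaturated lipids in membranes, and glutathione is the reductant that GPX4 uses to remove those lipid peroxides. The lens is known for its high glutathione content. Cells tune several of the iron genes after transcription: iron regulatory proteins bind a hairpin called the iron-responsive element when iron is scarce, which blocks translation of ferritin and ferroportin mRNA and protects transferrin receptor mRNA from decay. Read counts measure mRNA levels and do not measure translation.

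The hairpin is the regulatory sequence on which this control acts, so its sites in the members are printed here. The search took a C, 5 bases, the loop CAGTGN and 5 bases that pair with the first 5 to close the stem (G with T allowed), on the sense strand of GENCODE M21 protein-coding transcripts (build GRCm38). It found 7 sites in 4 of the 10 members, against 294 of 21877 protein-coding genes (1.34%) with at least 1 match anywhere in a transcript. A match describes letters only, and no match in the other members says only that this strict pattern was not found. In each 30-base window the 6 loop bases stand in capitals.
Fth1, 5′ UTR, chr19:9982732-9982761, plus strand: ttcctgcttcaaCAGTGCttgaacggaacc
Ftl1, 5′ UTR, chr7:45459778-45459807, minus strand: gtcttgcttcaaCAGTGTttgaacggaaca
Slc40a1, 5′ UTR, chr1:45925464-45925493, minus strand: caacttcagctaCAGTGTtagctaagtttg
Tfrc, 3′ UTR, chr16:32631219-32631248, plus strand: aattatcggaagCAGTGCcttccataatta
Tfrc, 3′ UTR, chr16:32631598-32631627, plus strand: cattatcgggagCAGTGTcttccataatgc
Tfrc, 3′ UTR, chr16:32631663-32631692, plus strand: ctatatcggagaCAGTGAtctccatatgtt
Tfrc, 3′ UTR, chr16:32631710-32631739, plus strand: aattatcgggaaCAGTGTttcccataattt
The windows of the 2 ferritin genes were alike at 26 of 30 positions. The sites found in Fth1, Ftl1 and Slc40a1 lay before the coding sequence, and the 4 sites found in Tfrc lay after it.

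The libraries held 45842484 to 61219009 reads in genes in KO and 20361430 to 43384443 in CON, of which crystallin genes took 44.9% ± 3.82 in KO and 64.7% ± 4.60 in CON (SD, n = 3 each). CON 2 was the shallowest library, and the member with the fewest reads there, Acsl4, had 33. Gclc itself had 17.9, 72.1 and 58.1 normalised reads in the KO libraries 1 to 3, against 178, 283 and 173 in the CON libraries 1 to 3, so every KO library was below every CON library. All 10 lens fibre markers had reads in every library. Their summed level was 4984110 to 7505961 normalised reads in KO and 13610226 to 19464009 in CON, and 9 of the 10 were lower in KO by the test described next. Normalised reads are the reads recovered from the deposited values over each library's size factor, and the labels mention no molecular identifiers. Differences are given on the deposited log2 scale as KO minus CON, a scale that shrinks the difference of a gene with few reads.

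Of the 10 members, Acsl4 and Trf were higher in KO lenses, none was lower, and 8 did not pass (limma, Benjamini-Hochberg adjusted p under 0.05 over 11468 genes tested). The same threshold called 6.91% of all tested genes higher and 4.39% lower. All 10 members passed the filter on low values. Their median log2 difference was 0.60, against 0.03 over all tested genes, with 7 members above 0 and 3 below. In 6 members every KO library stood above every CON library (Ftl1, Tfrc, Trf, Acsl4, Lpcat3 and Aifm2), a pattern that 16.9% of all tested genes showed. In the other 4 (Fth1, Slc40a1, Slc11a2 and Ncoa4) the groups overlapped. No member had every KO library below every CON library, which 14.1% of tested genes had.

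**Figure D1:**
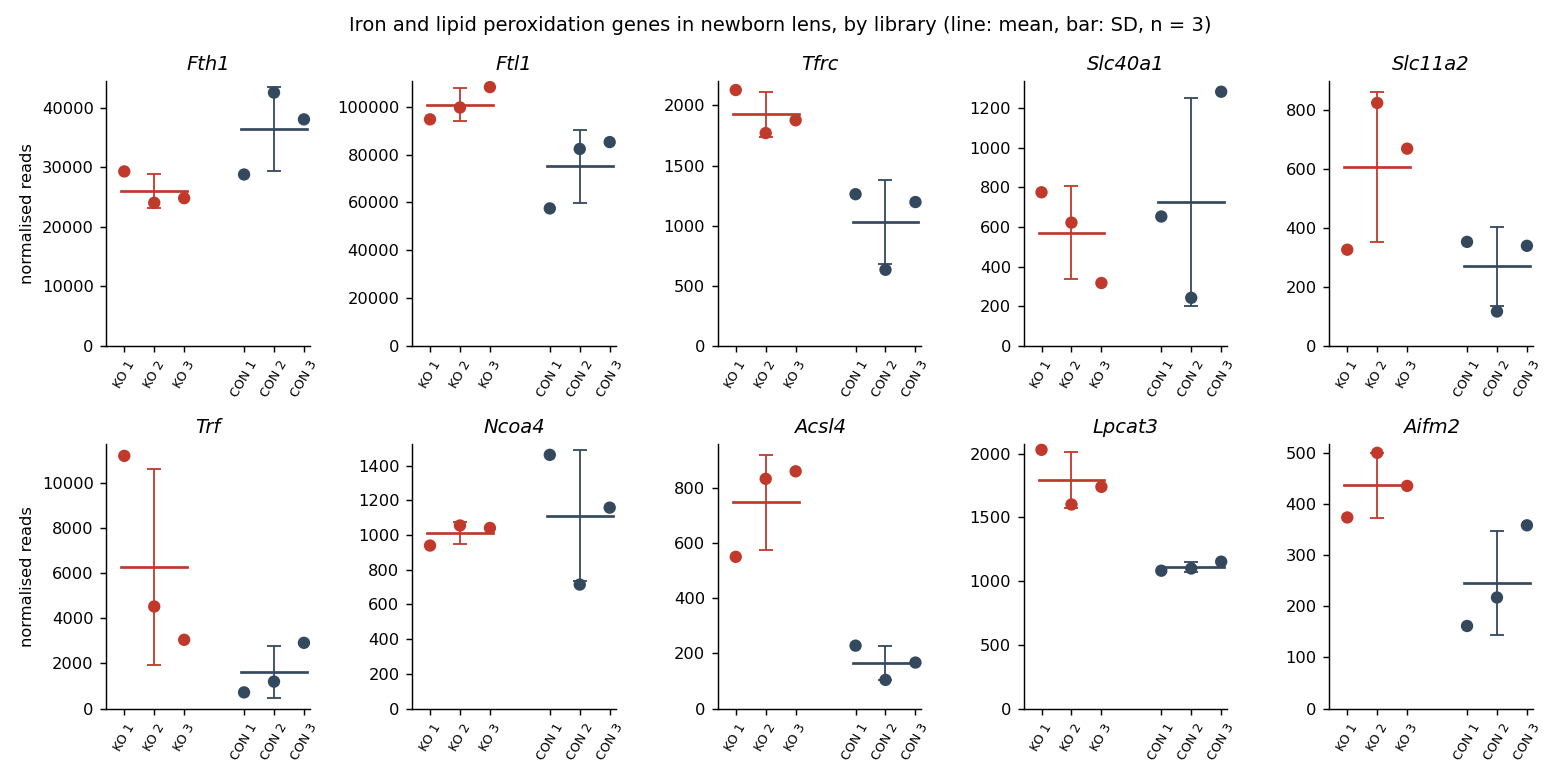
Normalised reads of the 10 genes in each library, KO in red on the left and CON in dark blue on the right, with the mean as a line and the SD as a bar (n = 3 per group). Acsl4 sits between 550.0 and 860 in KO and between 104 and 228 in CON, whereas the Slc40a1 and Ncoa4 points of the groups overlap.

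Per kilobase of exon, the ferritin genes were the most abundant members in both groups. Ftl1 averaged 104222 ± 7046 normalised reads per kilobase in KO and 77504 ± 15762.5 in CON (SD, n = 3 each). Fth1 followed with 16729 ± 1825 in KO and 23415 ± 4505 in CON. Trf was the next at 2274 ± 1579 in KO and 584 ± 419.8 in CON, and its spread reached the level of Lpcat3 in both groups, at 784 ± 95.9 in KO and 487 ± 16.2 in CON. In CON lenses the order below Lpcat3 was Ncoa4 (271 ± 91.8), Slc40a1 (215 ± 155), Tfrc (198 ± 66.6), Aifm2 (70.9 ± 29.3), Slc11a2 (47.0 ± 23.1) and Acsl4 (31.2 ± 11.7). Ncoa4, Slc40a1 and Tfrc did not differ beyond their spread there, and neither did Aifm2 and Slc11a2 or Slc11a2 and Acsl4. In KO lenses Tfrc stood above Ncoa4, at 370 ± 35.4 against 247 ± 15.4, and Acsl4, last of the 10 in CON, had 140.3 ± 32.2 per kilobase in KO, beside 126 ± 18.2 for Aifm2 and 106 ± 44.4 for Slc11a2.

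The ferritin subunits went in opposite directions without either passing the test. Fth1 (Entrez 14319) encodes the heavy chain, which carries the ferroxidase activity that oxidises iron as it enters the shell. It had 29317, 24052.5 and 24820 normalised reads in the KO libraries 1 to 3, against 28805, 42571 and 38068 in the CON libraries 1 to 3. CON 1 lay just below KO 1, so the groups overlapped by this pair. The log2 difference was -0.47 (SE 0.21, 95% interval -0.94 to 0.00, adjusted p = 0.190 by limma). Without CON 1 the difference was -0.63 and passed (limma adjusted p = 0.0388), whereas voom, limma's weighting for read counts, gave 0.39 on total reads, called higher (limma adjusted p = 0.0270).

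Ftl1 (Entrez 14325) encodes the light chain, which favours mineral formation inside the shell and lacks the ferroxidase centre. It had 94744, 99689 and 108227 normalised reads in the KO libraries 1 to 3, against 57484, 82356.5 and 85231 in the CON libraries 1 to 3. All KO libraries stood above all CON libraries, with CON 1 the lowest. The mean was 100887 ± 6821 in KO and 75024 ± 15258 in CON (SD, n = 3 each), a ratio of 1.34 (log2 difference 0.45, SE 0.23, 95% interval -0.05 to 0.95, limma adjusted p = 0.244). Without CON 1 the difference was 0.27 (limma adjusted p = 0.340). Ftl1 was called higher with quantile normalisation (1.17, limma adjusted p = 0.00124). It was also called with voom on total reads (1.3, limma adjusted p = 0.00111) or non-crystallin reads (0.66, 0.02875). Ferritin genes have processed copies in the mouse genome, and how reads matching several places were counted is not given in the sources used here, so their levels are less certain than those of single-copy genes. Of 9 other ferritin-like rows in the table, 7 had no reads in any library. Ftl1-ps2, a pseudogene, had 71.4, 42.1 and 79.3 normalised reads in KO 1 to 3 and 27.5, 40.9 and 51.6 in the CON libraries 1 to 3. Fthl17f had 1.80 in KO 2 and no reads elsewhere.

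A ratio of reads within a library does not depend on how libraries are scaled, and it separated the groups for the ferritin pair. There were 3.23, 4.14 and 4.36 Ftl1 reads per Fth1 read in the KO libraries 1 to 3, against 1.996, 1.94 and 2.24 in the CON libraries 1 to 3. The lowest KO ratio was above the highest CON ratio, and the means were 3.91 ± 0.599 in KO and 2.06 ± 0.161 in CON (SD, n = 3 each). No test was made of this ratio or of those given below, which were formed after the levels had been seen, and with 3 libraries against 3 an exact test could not go below 0.10. Separation was common among the members: the groups did not overlap in 19 of the 45 pairs of members, and in 6 of the 9 pairs with Fth1. These pairs share genes, and the share over pairs of all tested genes was not computed. The counts and the separated ratios therefore cannot be set against a background. Tfrc per 100 Ftl1 reads overlapped, at 2.246, 1.775 and 1.734 in KO 1 to 3 and 2.194, 0.7681 and 1.403 in CON 1 to 3. Trf to Tfrc, Ncoa4 to Fth1 and Slc11a2 to Tfrc also overlapped.

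**Figure D2:**
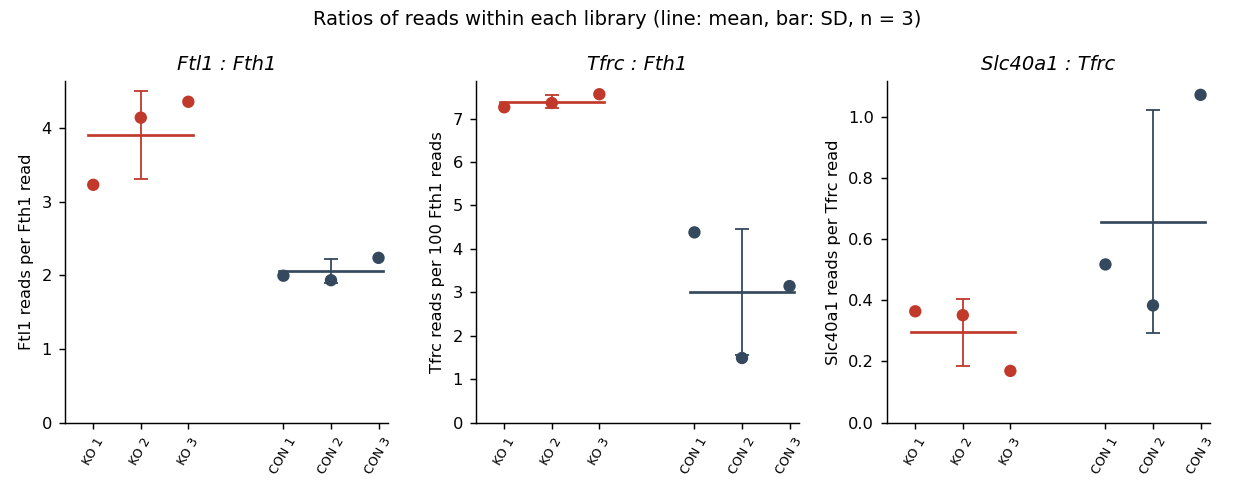
Ratios of reads within each library for 3 pairs of genes, KO in red on the left and CON in dark blue on the right, with the mean as a line and the SD as a bar (n = 3 per group). The 3 pairs shown are among those whose groups did not overlap. The Ftl1 to Fth1 ratio lies at 3.23 or more in KO and at 2.24 or less in CON, the 3 KO libraries lie close together for Tfrc per 100 Fth1 reads, and Slc40a1 per Tfrc read is lower in KO.

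Tfrc (Entrez 22042), which encodes the receptor that takes up transferrin, came close to the threshold. It had 2128, 1769.8 and 1876 normalised reads in the KO libraries 1 to 3, against 1261.5, 633 and 1196 in the CON libraries 1 to 3. Every KO library was above every CON library, and CON 2 was the lowest. The mean was 1925 ± 184 in KO and 1030.1 ± 346 in CON (SD, n = 3 each), a 1.87-fold ratio, with a log2 difference of 0.85 (SE 0.26, 95% interval 0.29 to 1.41, limma adjusted p = 0.0551). It passed without CON 1 (limma adjusted p = 0.0270) and failed without any other single library, at adjusted p from 0.0563 to 0.149. It also passed with a filter of 3 units above the value of 0 reads (0.0372), where Tfrc and Trf were the members called and Acsl4 was not tested, with weights per library (0.0197), with quantile normalisation (0.0366), and with voom on non-crystallin reads (0.0407) or total reads (0.00767). Set against Fth1, there were 7.26, 7.36 and 7.56 Tfrc reads per 100 Fth1 reads in KO 1 to 3 and 4.38, 1.49 and 3.14 in the CON libraries 1 to 3. The KO ratios had an SD of 0.153 and the CON ratios an SD of 1.45. Immature red cells are rich in this receptor. The 13 red cell genes in the table, globins among them, summed to 3131 to 4716 normalised reads in KO and 5798 to 9001 in CON. Of these genes 5 were tested, none was higher and 1 was lower in KO, and the embryonic globin genes Hbb-y and Hbb-bh1 were at 0 in all libraries. The part of red cells in the Tfrc values was not tested.

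Slc40a1 (Entrez 53945) encodes ferroportin, the iron exporter of cells. It had 775, 622 and 317 normalised reads in the KO libraries 1 to 3, against 652, 242 and 1282 in the CON libraries 1 to 3. The CON values spanned those of KO, and the highest and the lowest value of the gene were both CON. The log2 difference was -0.14 (SE 0.42, 95% interval -1.06 to 0.78, limma adjusted p = 0.873), and the sign was positive without KO 3 (0.14), without CON 3 (0.31) and with voom on total reads (0.48). The interval spans both directions widely. Per Tfrc read there were 0.364, 0.351 and 0.169 Slc40a1 reads in KO 1 to 3 and 0.517, 0.383 and 1.07 in the CON libraries 1 to 3, with the lowest CON ratio only just above the highest KO ratio.

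The members where the strict pattern was found before the coding sequence had log2 differences of -0.47 (Fth1), 0.45 (Ftl1) and -0.14 (Slc40a1), none of which passed. Tfrc, where it was found after the coding sequence, had 0.85, which did not pass either. Whether other members, Slc11a2 among them, carry a hairpin that the pattern misses was not tested.

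Trf (Entrez 22041), which encodes the iron carrier transferrin, had the largest difference of the 10 on the deposited log2 scale and a wide spread. It had 11189.6, 4518 and 3044 normalised reads in the KO libraries 1 to 3, against 716, 1193 and 2910.1 in the CON libraries 1 to 3. The lowest KO library was only 1.05-fold above the highest CON library, and KO 1 stood far above the other 5 libraries. The mean was 6250.4 ± 4340.5 in KO and 1606 ± 1154 in CON (SD, n = 3 each), a 3.89-fold ratio (log2 difference 1.84, SE 0.48, 95% interval 0.79 to 2.89, limma adjusted p = 0.0307). The call was lost without KO 1 (1.32, limma adjusted p = 0.103), KO 2 (adjusted p = 0.0511), CON 1 (0.0738) or CON 2 (0.109), and also without a filter on low values (0.0675) and on log2 of normalised reads plus 1 (0.0550).

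Transferrin is made chiefly by the liver, and in the eye by the pigment epithelium among other cells. Markers of pigment cells summed to 18879, 15910 and 12104 normalised reads in KO 1 to 3 and to 10613, 8472 and 9912 in the CON libraries 1 to 3. Of the 10 pigment cell markers 6 were tested, 2 were higher in KO, and Rpe65, the defining gene of mature retinal pigment epithelium, was at 0 in all libraries. Macrophage markers summed to 22199.5, 12299 and 7303 in KO 1 to 3 and to 3112, 2049 and 3381 in the CON libraries 1 to 3, with 12 of 17 tested markers higher in KO, none lower and none of the 20 at 0 throughout. Within KO, Trf ran in the same order as both sums, and within CON in the order of neither. CON 1 had the lowest Trf of the CON libraries (716) with the highest pigment cell sum, and CON 2 had the lowest macrophage sum. Retinal markers summed to 4675 to 6785 in KO and 1899.8 to 4050.3 in CON, with 1 of 8 tested higher. The part of these cells in the rise of Trf was not tested. In RNA of a whole tissue, a change in the number of cells of a type and a change in RNA per cell cannot be told apart.

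**Figure D3:**
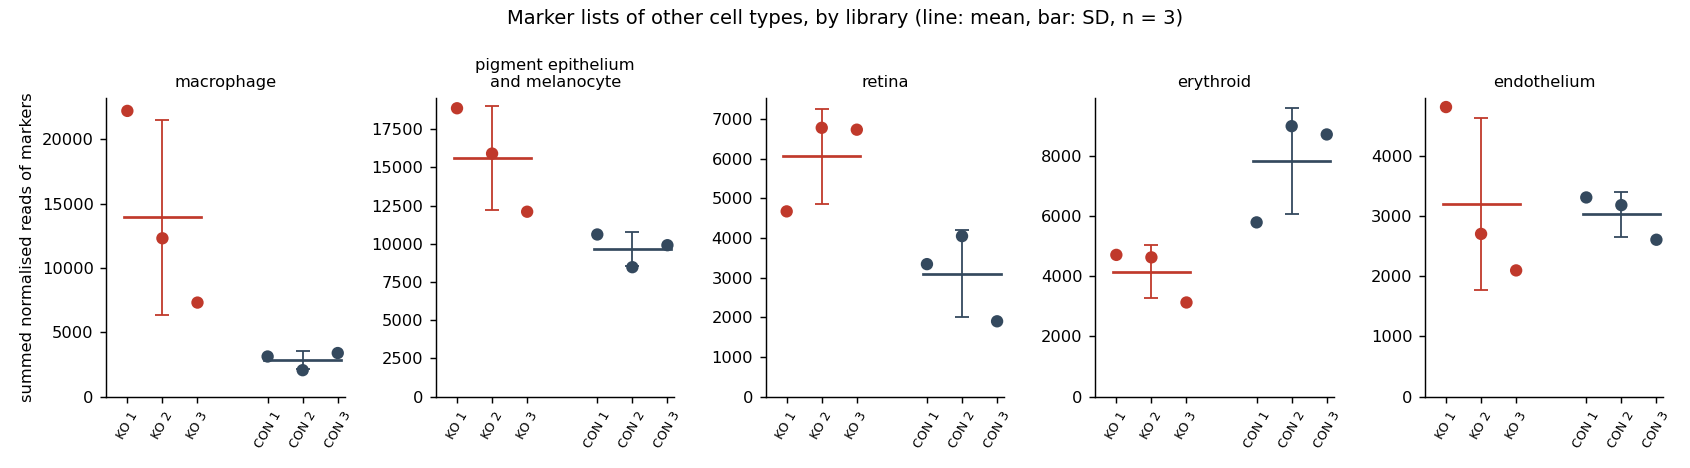
Summed normalised reads of marker genes of 5 other cell types in each library, KO in red on the left and CON in dark blue on the right, with the mean as a line and the SD as a bar (n = 3 per group). The macrophage sum is 7303 or more in KO and 3381 or less in CON, the red cell sum is lower in KO on this scale, and the endothelial sums overlap.

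Slc11a2 (Entrez 18174) encodes the divalent metal transporter that moves iron out of the endosome. It had 326, 824 and 669 normalised reads in the KO libraries 1 to 3, against 353, 116 and 339 in the CON libraries 1 to 3. KO 1 lay within the CON range, and the other KO libraries were above it. The log2 difference was 0.85 (SE 0.34, 95% interval 0.10 to 1.61, limma adjusted p = 0.139). It passed with weights per library (1.13, limma adjusted p = 0.0261). The CON 2 value rests on 37 reads, and without that library the difference was 0.54 (adjusted p = 0.372).

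Ncoa4 (Entrez 27057), which encodes the receptor that delivers ferritin to lysosomes for breakdown, had similar means in both groups. It had 939, 1055 and 1040.7 normalised reads in the KO libraries 1 to 3, against 1462, 714 and 1158 in the CON libraries 1 to 3. The KO libraries lay inside the CON range, and their SD was 63.1 against 376 in CON. The log2 difference was -0.07 (SE 0.26, 95% interval -0.63 to 0.49, limma adjusted p = 0.896). Its sign was positive in 4 of the 18 other settings, by at most 0.65 with voom on total reads.

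Acsl4 (Entrez 50790) kept its call in more of the alternative settings than any other member. It encodes the acyl-CoA synthetase that activates arachidonic and related polyunsaturated fatty acids for membrane phospholipids, the lipids that are peroxidised in ferroptosis. It had 550.0, 833 and 860 normalised reads in the KO libraries 1 to 3, against 228, 104 and 167 in the CON libraries 1 to 3, from 33 reads in CON 2 to 1627 in KO 3. The lowest KO library was 2.41-fold above the highest CON library. The mean was 747.5 ± 172 in KO and 166 ± 62.1 in CON (SD, n = 3 each), a 4.50-fold ratio (log2 difference 1.52, SE 0.27, 95% interval 0.93 to 2.11, limma adjusted p = 0.00511). The call held under all 17 alternative settings in which the gene was tested, including the removal of each library in turn (limma adjusted p from 0.00498 to 0.0323). A filter of 3 units above the value of 0 reads left it out. Per 100 Fth1 reads there were 1.88, 3.46 and 3.46 Acsl4 reads in KO 1 to 3 and 0.792, 0.244 and 0.438 in the CON libraries 1 to 3. Macrophages also express Acsl4. KO 1, which had the highest macrophage sum of the KO libraries (22199.5 against 12299 and 7303), had the lowest Acsl4 among them, and it also had the lowest retinal sum (4675 against 6785 and 6737). The CON libraries ran otherwise. CON 2 had the lowest Acsl4 among them (104), with the lowest macrophage sum (2049) and the highest retinal sum (4050.3). The part of other cells in the rise was not tested.

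Lpcat3 (Entrez 14792) encodes the enzyme that inserts polyunsaturated acyl chains into lysophospholipids, the step after ACSL4. It had 2029, 1600.3 and 1738 normalised reads in the KO libraries 1 to 3, against 1081, 1098 and 1152 in the CON libraries 1 to 3. The groups were apart by 448 normalised reads, and the CON libraries were the tightest of any member, with a coefficient of variation of 3.33% against 12.2% in KO. The mean was 1789 ± 219 in KO and 1110.4 ± 37.0 in CON (SD, n = 3 each), a 1.61-fold ratio (log2 difference 0.61, SE 0.20, 95% interval 0.16 to 1.05), which did not pass (limma adjusted p = 0.0796). It passed with voom on total reads (1.51, limma adjusted p = 0.00420) or on the reads outside crystallins (0.88, adjusted p = 0.0323).

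Aifm2 (Entrez 71361) encodes FSP1, which suppresses ferroptosis without glutathione by regenerating reduced coenzyme Q. It had 374, 500.2 and 435.5 normalised reads in the KO libraries 1 to 3, against 161.5, 217 and 358 in the CON libraries 1 to 3. KO 1 was only 1.04-fold above CON 3. The mean was 436.5 ± 63.2 in KO and 246 ± 101.5 in CON (SD, n = 3 each), a 1.78-fold ratio (log2 difference 0.60, SE 0.27, 95% interval 0.01 to 1.19), which did not pass (limma adjusted p = 0.181). Of the 17 alternative settings in which it was tested, Aifm2 passed only with voom on total reads (1.68, limma adjusted p = 0.0209).

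The direction of 3 members depended on the scaling. Voom on total reads takes the library total, in which crystallins take a larger share in CON, as the scale. With it the median over all tested genes was 0.86, 7 members were called higher, and Fth1, Slc40a1 and Ncoa4 were at 0.39, 0.48 and 0.65, all below that median. Relative to it, Acsl4 was at 2.0, Trf at 1.93 and Tfrc at 0.83. With equal library medians the calls were Acsl4 and Trf alone, at 1.40 and 1.72, where the median of all genes was -0.09. Quantile normalisation, which gives every library the same distribution of values, called Ftl1 (1.17, limma adjusted p = 0.00124) and Tfrc (0.85, 0.0366) beside Acsl4 and Trf, and left Fth1 at -0.06.

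**Figure D4:**
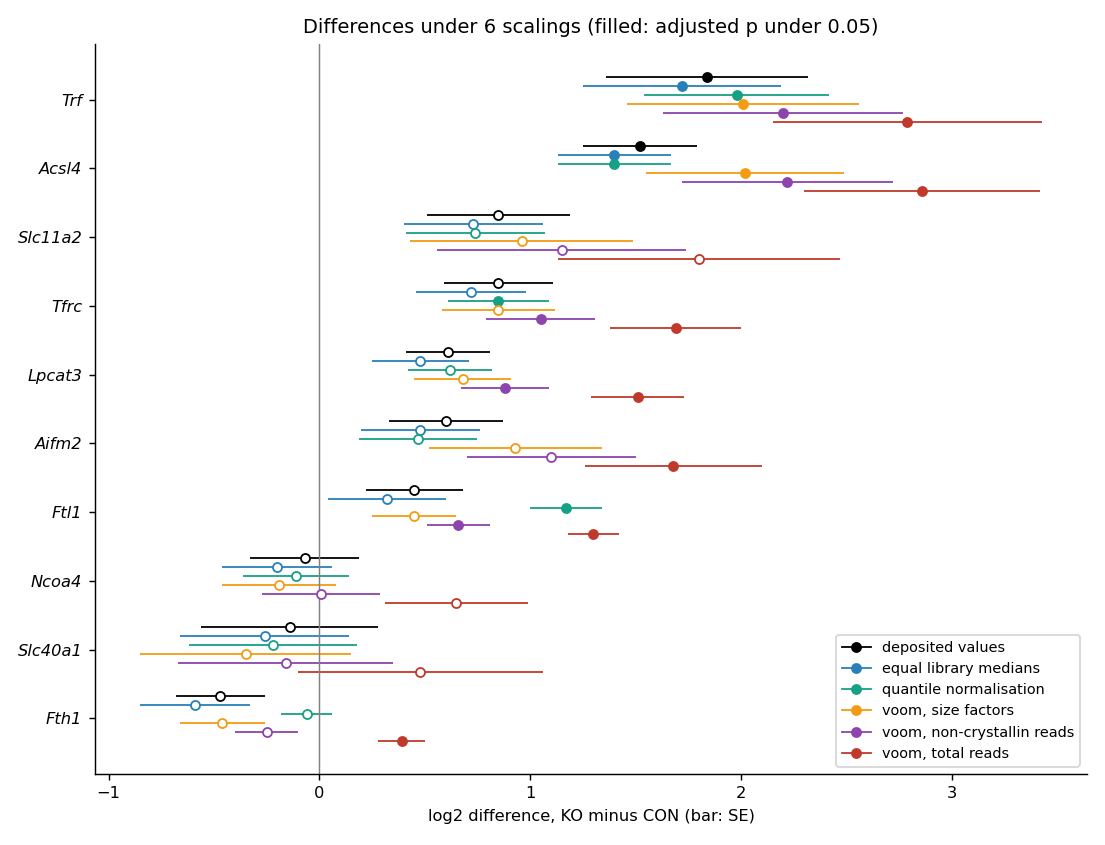
Log2 difference, KO minus CON, of each gene under 6 scalings, with the SE as a bar. Filled points passed an adjusted p under 0.05. Acsl4 and Trf are filled under all 6. The Fth1 point lies above 0 only with voom on total reads, at 0.39, and its bar spans 0 with quantile normalisation (-0.06, SE 0.12).

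Beyond the 10 members, some genes of iron uptake and transport rose. Of 28 such genes with a row in the data, 17 were tested, 7 were higher, none was lower and 10 did not pass, with a median log2 difference of 1.02. Over all tested genes the median was 0.03, and 6.91% were higher. The filter used the mean over all 6 libraries, so a gene near 0 in CON could pass it through its KO level. Among the 7 called, Lrp2 had 2, 0 and 93 reads in the CON libraries 1 to 3, Slc11a1 33, 0 and 19, and Steap3 52, 0 and 10. Steap2 had 143, 9 and 0 reads there, and Cd163 148, 5 and 63. The count and the median include such genes and so are not separate support for a rise of the list. Cp, which encodes the ferroxidase ceruloplasmin that works with ferroportin, had 15201 ± 3062 normalised reads in KO and 7174 ± 2598 in CON (SD, n = 3 each; log2 difference 1.11, limma adjusted p = 0.0248). Lrp2, which encodes the endocytic receptor megalin, rose by 1.84 (limma adjusted p = 0.0137), and Slc11a1, which encodes an iron transporter of macrophage phagosomes, rose by 1.31 (0.0156). The ferrireductase gene family contributed Steap1 (1.11), Steap2 (1.40) and Steap3 (1.28), and the last gene was the haemoglobin scavenger receptor Cd163 (1.26), itself a macrophage marker. Steap2, Steap3 and Cd163 lie outside the rule for naming genes and were named after their values were seen. None of the 7 calls held in every fit with 1 library left out. Lrp2 failed without KO 2 (limma adjusted p = 0.0538) or CON 2 (0.0588), Slc11a1 without KO 2 (0.0786) or KO 3 (0.0684), and Cp without KO 2 (0.1001), KO 3 (0.0936) or CON 2 (0.0885). The other 4 failed in 4 or 5 such fits each, among them those without KO 2 (0.1004 to 0.155) and without CON 2 (0.0791 to 0.158). With voom on recovered reads, Cp alone of the 7 passed under all 3 library sizes. The macrophage markers summed to 7303 to 22199.5 normalised reads in KO and 2049 to 3381 in CON in the same libraries.

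Iron storage and its control by the iron regulatory proteins showed no called gene. All 9 tested genes did not pass, with a median of -0.15. Aco1 and Ireb2, which encode these proteins and were named after their values were seen, were at 0.51 (95% interval 0.03 to 1.00, limma adjusted p = 0.165) and 0.79 (0.10 to 1.49, adjusted p = 0.134), with every KO library above every CON library in both. Of 27 tested genes of mitochondrial iron, heme and iron-sulphur clusters, none rose, 2 fell and 25 did not pass, with a median of -0.05. Over all tested genes 4.39% fell, so this count too is near the background. Iscu, which encodes the scaffold on which iron-sulphur clusters are built, had 563 ± 112 normalised reads in KO and 1882 ± 630.5 in CON (SD, n = 3 each; log2 difference -1.45, limma adjusted p = 0.00690). Its call held without each library in turn (limma adjusted p up to 0.0353) and was lost with voom on total reads (-0.84, 0.122). Hmox1, which encodes the heme-degrading enzyme that releases iron, fell by 1.31 (limma adjusted p = 0.0452). Its groups overlapped, with 9888, 5799 and 6267 normalised reads in KO 1 to 3 and 18973, 9322 and 32613 in the CON libraries 1 to 3, and the call held only without CON 2 among the fits with 1 library left out (adjusted p up to 0.147). It was also lost with quantile normalisation (limma adjusted p = 0.0683) and with voom on total reads (-0.58, 0.253) or non-crystallin reads (0.0749). The same held without a filter on low values (0.0895), with either pseudocount (0.0723 and 0.0521) and without a variance trend (0.0660). The Hmox1 call held with equal library medians (0.0226) and with voom and the size factors (0.0448), among others.

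Of 29 tested genes of lipid peroxidation, 3 rose, none fell and 26 did not pass, with a median of 0.19. Over all tested genes 6.91% rose, so this count is near the background. Sat1, which encodes a polyamine acetyltransferase linked to ferroptosis, had 5715 ± 1291 normalised reads in KO and 1902 ± 593 in CON (SD, n = 3 each; log2 difference 1.53, limma adjusted p = 0.00423). Lpcat2, which encodes a lysophospholipid acyltransferase of inflammatory cells, rose by 1.31 (adjusted p = 0.00740), and Acsl5, which encodes another acyl-CoA synthetase, rose by 1.45 (adjusted p = 0.0182). Sat1 and Lpcat2 kept their calls without each library in turn. Acsl5 lost its call without KO 1 (limma adjusted p = 0.0608), KO 2 (0.0653) or CON 2 (0.0535). Among other acyl-CoA synthetase genes, named after their values were seen, Acsl3 had a log2 difference of -0.45 and Acsl1 of 0.47, and neither passed.

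Of 34 tested genes that restrain ferroptosis, 6 rose, 1 fell and 27 did not pass, with a median of 0.09, where 6.91% of all tested genes rose and 4.39% fell. Prdx6, which encodes a peroxiredoxin that reduces phospholipid hydroperoxides, had 7806 ± 519.5 normalised reads in KO and 4448.5 ± 895 in CON (SD, n = 3 each; log2 difference 0.80, limma adjusted p = 0.0272). It failed without KO 1 (0.0900), KO 2 (0.124), KO 3 (0.0895) or CON 2 (0.0796), with equal library medians (0.0836) and without a variance trend (0.0550). Scd1, which encodes the desaturase that makes monounsaturated fatty acids, rose by 1.26 (limma adjusted p = 0.0328) and failed without KO 2 (0.153), KO 3 (0.135), CON 2 (0.105) or CON 3 (0.0770). Scd1 had only 68, 2 and 10 reads in the CON libraries 1 to 3. Both were named after their values were seen. Sqstm1, which encodes an autophagy receptor (2.03), Hspa5, which encodes a chaperone of the endoplasmic reticulum (1.57), and Cd44, which encodes a hyaluronan receptor (1.24), rose and kept their calls without each library in turn. Nqo1, which encodes a quinone reductase, rose (1.11) and failed without KO 2, KO 3 or CON 2 (adjusted p up to 0.103). Gpx4, which encodes the phospholipid hydroperoxide reductase itself, had 7651 ± 1232 normalised reads in KO and 6696 ± 1466 in CON (SD, n = 3 each; log2 difference 0.20, limma adjusted p = 0.623), and Slc7a11, which encodes the cystine importer, had 1296 ± 412 in KO and 991 ± 317 in CON (0.34, limma adjusted p = 0.480). Both were named after their values were seen. Slc3a2, which encodes the partner chain of that importer, was the gene that fell (-0.72, adjusted p = 0.0399), and it stood at 0.12 with voom on total reads. It failed without KO 1 (0.0607), KO 2 (0.206), KO 3 (0.168) or CON 2 (0.123), and also with quantile normalisation (-0.40, adjusted p = 0.161), voom on non-crystallin reads (0.0962), no filter on low values (0.0597) or no variance trend (0.0746).

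Of the transcripts often used as markers of ferroptosis, all 11 were tested, 6 rose, 1 fell and 4 did not pass, with a median of 1.52, and the list holds the members Acsl4 and Tfrc. Over all tested genes 6.91% rose and 4.39% fell, with a median of 0.03. Acsl4, counted above as a called member, is among the 6 that rose. In the CON libraries 1 to 3, Gdf15 had 9, 0 and 8 reads and Trib3 had 37, 0 and 0. These genes and Ptgs2 passed the filter on low values through their KO levels. The count and the median of this list include them and so are not separate support for a rise of the list. Ptgs2, which encodes the inducible prostaglandin synthase, had 597, 807 and 668 normalised reads in KO 1 to 3 and no read in any CON library. Against 3 reads over the CON libraries together it was at least 448-fold higher, a bound that covers counting error only. Atf3 (3.03), Gdf15 (2.93), Chac1 (2.39) and Trib3 (2.07) rose, the last named after its values were seen. These 4 respond to several stresses, and Ptgs2 is an immediate early gene that macrophages also express. The 4 calls and that of Ptgs2 held without each library in turn. With voom on recovered reads and the size factors, Gdf15 (limma adjusted p = 0.0845) and Trib3 (0.0694) failed. Both also failed with voom on non-crystallin reads (0.0841 and 0.0809) and passed with voom on total reads (0.0276 and 0.0368). Hmox1 was the one that fell. Of those that did not pass, Rgs4 was at -0.68, Ddit4 at -0.22, Slc7a11 at 0.34 and Tfrc at 0.85.

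**Figure D5:**
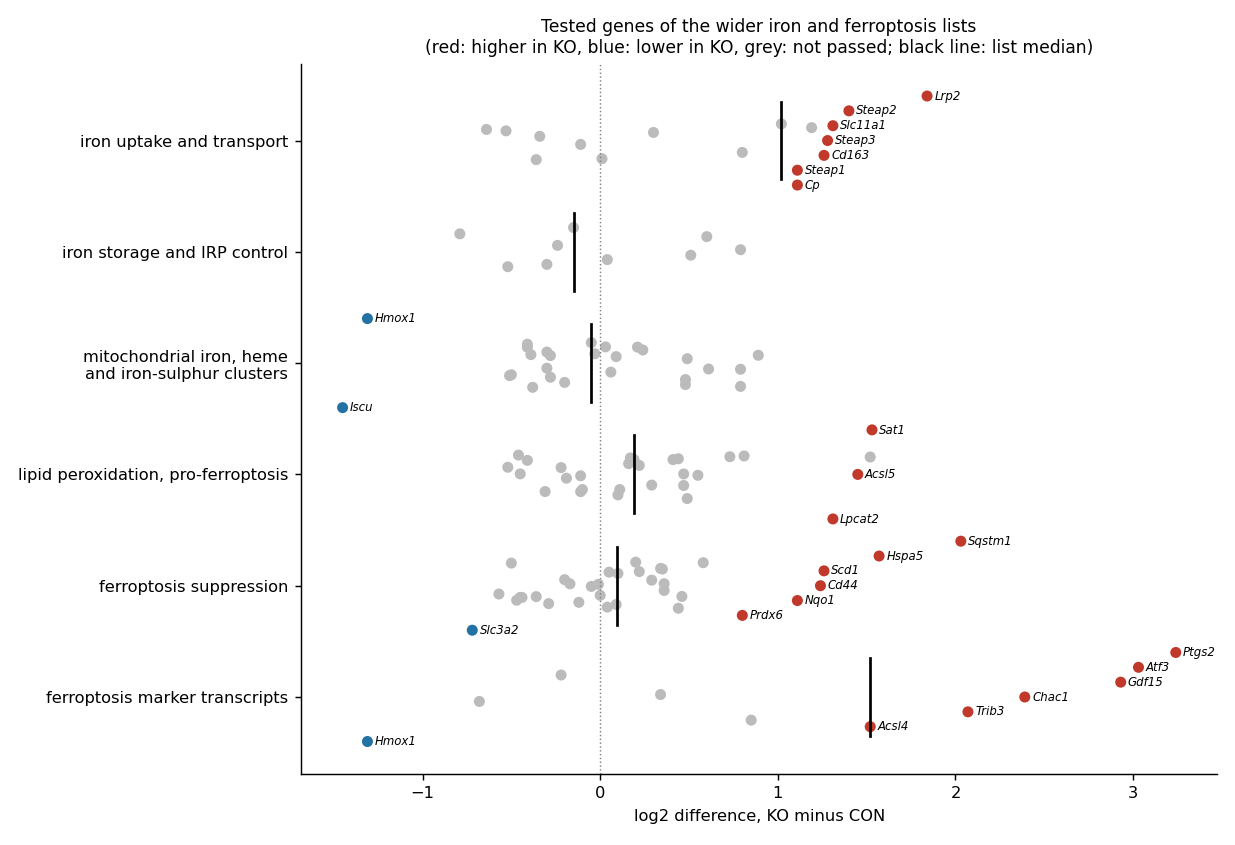
Log2 difference, KO minus CON, of each tested gene of 6 lists of iron and ferroptosis genes, higher in KO in red, lower in blue and not passed in grey, with the list median as a black line. The medians are 1.02 for iron uptake and 1.52 for marker transcripts, and between -0.15 and 0.19 for the other 4 lists. Both of the higher medians include genes that passed the filter on low values through their KO levels.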

How the data were processed

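RNA sequencing of 6 lens libraries was analysed. The authors used Trimmomatic, HISAT2 2.1.0, featureCounts 1.6.4 and DESeq2, with the build mm9, as the submitters' processing notes list them. The strand setting and the treatment of reads with several matches are not given in the sources used here. The authors deposited log2 values after a variance-stabilising transformation, in which a gene without reads stands at 6.504.

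The transformation was inverted to reads. All values above 0 came within 0.1 of a whole number (100.0%, largest distance 0.019), and the size factors, 1.6634 to 1.892 in KO and 0.3178 to 0.9473 in CON, were equal to median-of-ratios factors computed from these reads. Symbols were matched for 25275 identifiers (RefSeq, GRCm38.p6). Exon lengths and transcripts came from GENCODE M21, so their coordinates are GRCm38, not mm9.

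The main test was limma 3.58.1 under R 4.3.3 (eBayes with trend, no covariate) on the deposited log2 values, KO minus CON, keeping genes whose mean lay 1 unit or more above 6.504. The fit was also run on simulated reads, with the same spread setting for all genes and equal group means apart from genes changed on purpose. The libraries here differ from that in crystallin share and in spread, so the run does not show how the fit performs on them. Intervals are 95% intervals of that fit. The members and lists were chosen with earlier results of these data known, so no p was adjusted over a list and no list was tested. The text names all members and up to 4 called genes with the smallest p in each direction of each list. Other filters, scalings, pseudocounts of 1 and 10, variance models, a replicate block and the removal of each library were tried.

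Libraries with equal numbers were checked for pairing by correlating their deviations from the group means. The correlations were -0.364, -0.128 and -0.14, and libraries were left unpaired.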

Additional observations from a re-analysis of the deposited data

How the results depend on the processing

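The number of members called higher was 2 (Acsl4 and Trf) as reported, 1 without a filter on low values or on log2 of normalised reads plus 1, 4 with quantile normalisation or library weights, 5 with voom and non-crystallin reads, and 7 with voom and total reads; with 1 library left out it was 1 to 2. None was called lower, and 0 to 1 with 1 library left out (Fth1 without CON 1). Of the genes tested, 6.91% were higher and 4.39% lower. The percentage higher was 3.67 with voom and the size factors, 28.9 with voom and total reads and 10.6 with library weights, and 3.11 to 9.46 with 1 library left out. The percentage lower was 1.87 without a filter, 9.22 with a filter of 3 units, both of which change the genes tested, 0.741 with voom and total reads, 2.55 with voom and non-crystallin reads, 8.14 with library weights and 2.69 with the replicate block, and 1.53 to 7.48 with 1 library left out. The share of higher calls was 61.1% as deposited, 71.3% without a filter, 42.4% with a filter of 3 units, 47.3% with equal medians, 47.1% with voom and the size factors and 97.5% with voom and total reads. The cause of these shifts was not tested.

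Leaving out 1 library gave -0.62 to 0.31 for Slc40a1 and -0.32 to 0.12 for Ncoa4. Signs turned for Fth1 with voom and total reads (0.39), for Slc40a1 with voom and total reads (0.48), without KO 3 (0.14) or without CON 3 (0.31), for Ncoa4 with voom and total reads (0.65) or non-crystallin reads (0.01), library weights (0.03) or without CON 1 (0.12), and for Slc3a2 with voom and total reads (0.12). With the replicate number as a block, 605 genes were higher and 309 lower, and the members called higher were the same 2. Among list genes named, Prdx6 (adjusted p = 0.0988) and Slc3a2 (0.142) lost their calls with this block. Depth limits Acsl4, Slc11a2 and Aifm2 most, which had 33, 37 and 69 reads in CON 2.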
